A study of Sus scrofa with 95 samples.

Results

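Immediate early response genes were measured in 5 organs of infant pigs after cardiopulmonary bypass (CPB) with deep hypothermic circulatory arrest. The genes were taken by symbol: of 39 symbols asked for, 38 had an entry among the 35670 genes of the count table, and JUND had no entry under that symbol. All 38 passed the filter on low counts in each of the 5 organs, so every one was tested in every comparison. By role they comprised AP-1 subunits and the related factor MAFF (FOS, FOSB, FOSL1, FOSL2, JUN, JUNB, ATF3), EGR zinc finger factors (EGR1, EGR2, EGR3), orphan nuclear receptors (NR4A1, NR4A2, NR4A3), other transcription factors (SRF, MYC, KLF4, KLF6, KLF10, CSRNP1), brakes on MAP kinase signalling (DUSP2, DUSP4, DUSP5, DUSP6, SPRY2, SPRY4), mRNA decay factors (ZFP36, ZFP36L1, ZFP36L2, BTG2), secreted CCN proteins (CCN1, CCN2) and a last group of IER2, IER3, IER5, GADD45A, GADD45B and RHOB.

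The animals were 19 swine of 5 to 10 kg in 3 arms. In the first, 4 pigs (2 male, 2 female) underwent CPB with circulatory arrest and received 75 mg of linrodostat, an inhibitor of the tryptophan-degrading enzyme IDO1. In the second, 7 pigs (4 male, 3 female) had CPB and arrest without drug; arrest lasted 75 min in both bypass arms. The third arm held 8 control pigs (4 male, 4 female) that had anesthesia without bypass. Each pig gave heart (left ventricle), terminal ileum, kidney (cortex), liver and lung (right lower lobe), which makes 95 libraries of bulk polyA RNA. Kidney and ileum were taken just before euthanasia, and liver, heart and lung just after pentobarbital had circulated. Every heart library has batch label 2 and every other library label 1, so organ and batch cannot be told apart for heart. The arms do not separate bypass from cooling or arrest, since no pig had one without the others, and linrodostat was given only together with CPB.

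Immediate early genes are switched on within minutes of a stimulus, without new protein synthesis. Growth factors, cytokines, calcium and stress act through MAP kinases on the serum response factor SRF and its partners at promoters such as those of FOS and EGR1, while actin dynamics act on SRF through the MRTF coactivators. The first products are largely transcription factors, and a later set (phosphatases such as DUSP5 and DUSP6, the Sprouty proteins, and ZFP36, which hastens decay of AU-rich mRNAs) turns the signal down again. FOS and EGR1 mRNAs are short-lived, whereas FOSL1, a target of AP-1 itself, follows a more lasting signal. Anesthesia, surgery and tissue handling can induce these genes as well.

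Total counts per library were 19956858 to 53627711, with a median of 35114843. Summed markers of each organ were high in its own libraries, with 1 exception among ileum libraries. FABP6, the ileal bile acid binding protein, stood at 10.4 CPM in CPB pig 19, against 1771 to 6877 CPM in the other 18. For the libraries set apart in this paragraph, CPM are counts per 1000000 counts of all genes. Elsewhere CPM are counts per 1000000 counts of the tested genes. Summed heart markers reached 217 CPM in the kidney of linrodostat pig 12, and 92.5 and 106 CPM in those of CPB pigs 6 and 9, against 0.106 to 24.3 CPM in the other 16 kidneys. Fat cell markers reached 116 and 202 CPM in the kidneys of control pigs 1 and 26, against 1.39 to 32.2 CPM in the other 17. Summed kidney markers stood at 11.6 to 62.3 CPM in 4 lungs (linrodostat pigs 18 and 20, CPB pigs 19 and 25), against 0.249 to 6.95 CPM in the other 15, and in the lungs of CPB pig 25 and control pig 1 the top 10 genes held 24.5% and 27% of counts, against 4.6% to 6.49% elsewhere. On the scale of the tested genes, summed kidney markers in heart were 0.475 to 1.81 CPM with CPB plus linrodostat, 0.83 to 17.2 CPM with CPB and 0.23 to 2.15 CPM in controls. Summed liver markers in kidney reached 704, 337 and 203 CPM in the same order. No libraries were set apart by these sums, and their part in the results was not tested. In bulk tissue, fewer cells of a type and less RNA per cell cannot be told apart.

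Kidney was the organ in which most members rose. With CPB, 11 of 38 were higher than in control kidneys and 0 were lower (edgeR quasi-likelihood test, Benjamini-Hochberg adjusted p under 0.05 over all genes of the organ, the rule for every call here); among all 17653 kidney genes tested, 11.3% were higher and 9.86% lower. Heart had 6 members higher and 2 lower, with backgrounds of 6.39% and 5.53% of genes. Liver had 2 higher and 4 lower, where 15.6% and 11.3% of genes were called, so neither count exceeded the background. Lung had 1 higher and 1 lower, at backgrounds of 2.08% and 2.62%. In ileum 0 members were called, as were 0% of all genes. Over the members, the median log2 fold change stood at 0.22 in kidney, 0.23 in heart, 0.11 in lung, -0.06 in liver and -0.19 in ileum, and that of all genes tested lay between -0.03 and 0.01. Of the 38, 15 were called in 1 organ and 6 in 2: FOSL1 and DUSP6 (higher in kidney and liver), CSRNP1 (higher in kidney and heart), DUSP5 (higher in kidney, lower in liver), GADD45A (higher in lung, lower in heart) and SPRY4 (lower in heart and lung). The share of all genes called in 1 or in 2 organs was not counted, so these counts have no background and describe the list only. The 17 called in no organ were FOSL2, JUN, JUNB, ATF3, EGR3, NR4A2, MYC, KLF4, KLF6, DUSP2, SPRY2, ZFP36L1, ZFP36L2, IER2, IER5, GADD45B and RHOB.

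**Figure D1:**
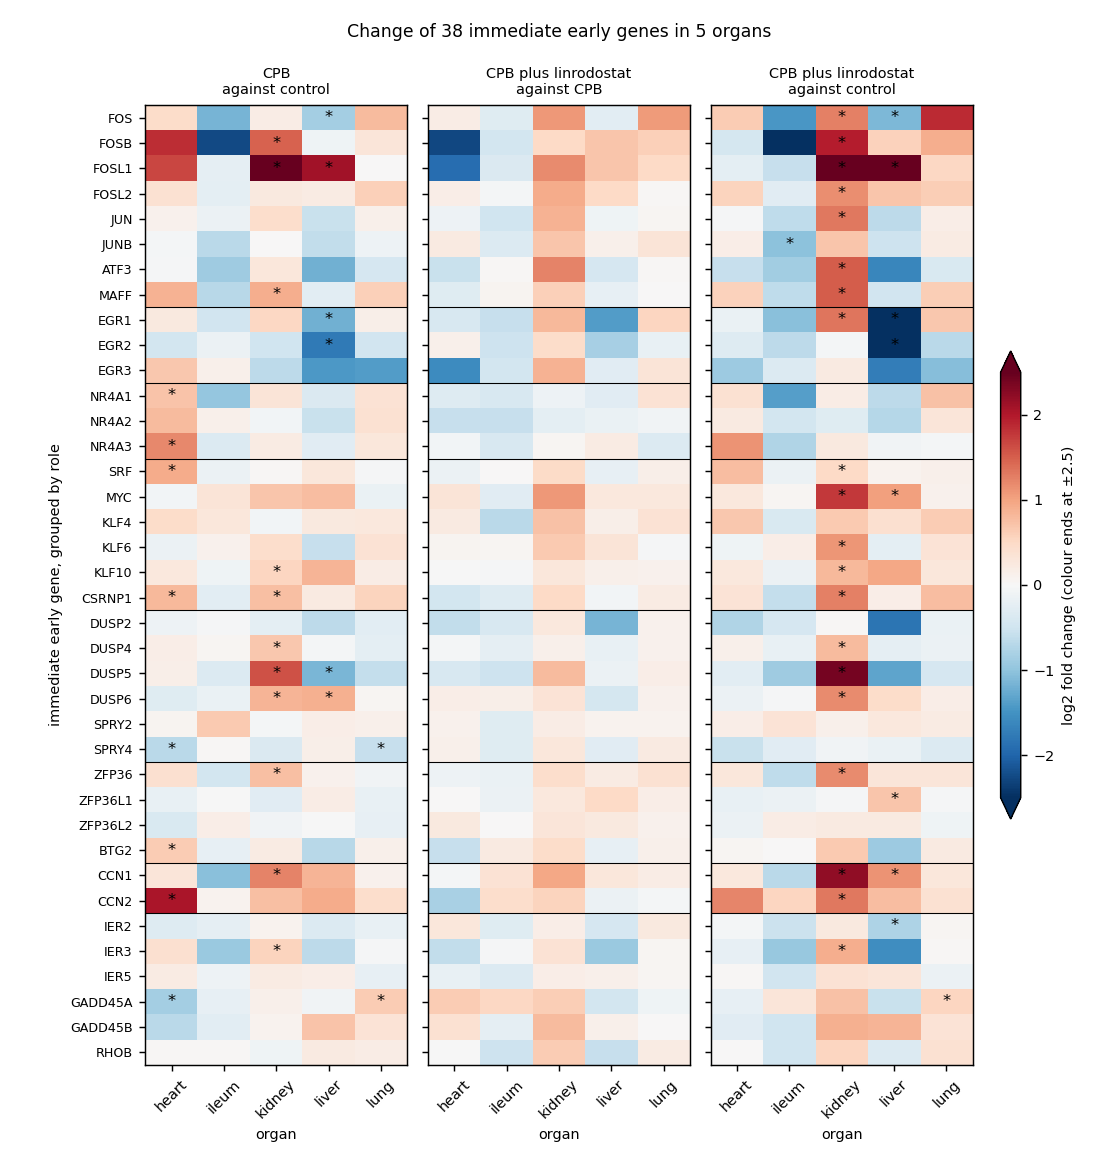
Log2 fold change of the 38 immediate early genes (rows, grouped by role) in 5 organs for CPB plus linrodostat against CPB, CPB against control, and CPB plus linrodostat against control; red is higher in the arm named first, blue lower, colours end at 2.5 on either side, and an asterisk marks an adjusted p under 0.05. Kidney carries 11 asterisks for CPB against control and 20 for CPB plus linrodostat against control, and no asterisk appears for CPB plus linrodostat against CPB.

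Among AP-1 genes in kidney, 3 of 8 rose with CPB and all 8 had a fold change above 0. The largest change was that of FOSL1 (FRA1, a FOS family subunit that pairs with JUN; chr2:6430158-6436173 in the RefSeq annotation of Sscrofa11.1, which is the build the submitters name). It stood at 25.9, 43.2, 18.2 and 4.3 CPM in the 4 linrodostat kidneys, at 2.37 to 31.7 CPM in CPB kidneys (median 9.28) and at 0.051 to 0.957 CPM in control kidneys (median 0.185). Every bypass kidney, with or without drug, lay above every control kidney. The log2 fold change of CPB against control was 5.02 ± 0.72 (SE, adjusted p = 0.000144), a fold of 32.4, on 81 to 866 counts per CPB library and 2 to 39 per control library. FOSB, another FOS family subunit, ranged from 1.29 to 4.62 CPM with CPB (median 2.48) and from 0.433 to 1.84 CPM in controls (median 0.858), a change of 1.48 ± 0.31 (adjusted p = 0.00284). Of the 7 CPB kidneys, 5 exceeded all controls for FOSB. MAFF, a small MAF protein that dimerizes with other bZIP factors, stood at 20.3 to 62.2 CPM with CPB (median 40.4) and 9.17 to 30.4 CPM in controls (median 22.6), a change of 0.91 ± 0.26 (adjusted p = 0.0195, and 0.0562 without CPB pig 21). The groups overlapped, with 5 of 7 CPB kidneys above all controls.

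FOS and EGR1, the genes most often used as markers of this response, were not called in kidney with CPB. FOS stood at 4.59 to 13.5 CPM with CPB (median 7.04) and 1.94 to 17.1 CPM in controls (median 6.59), a difference of 0.18 ± 0.36 (adjusted p = 0.762). EGR1, a zinc finger factor under SRF control, stood at 17.5 to 79.6 CPM with CPB (median 31.5) and 13.1 to 43.1 CPM in controls (median 29.3), a difference of 0.52 ± 0.33 (adjusted p = 0.27). For FOS every CPB kidney lay within the control range. For EGR1 the arms overlapped, with 2 of 7 CPB kidneys above all controls.

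Of the 6 genes that brake MAP kinase signalling, 3 rose in kidney and 0 fell. DUSP6, the cytoplasmic phosphatase that inactivates ERK (chr5:93303058-93307510), stood at 137 to 204 CPM with CPB (median 164) and 66.3 to 112 CPM in controls (median 95.7), a change of 0.84 ± 0.12 (adjusted p = 0.000106). The CPB and control kidneys did not overlap. DUSP5, the nuclear ERK phosphatase (chr14:120906340-120919398), stood at 14 to 40.8 CPM with CPB (median 21.2) and 4.38 to 15.6 CPM in controls (median 8.3), a change of 1.60 ± 0.27 (adjusted p = 0.000556). Only the lowest CPB kidney fell within the control range. DUSP4, a nuclear phosphatase of ERK and JNK, stood at 24.6 to 43.4 CPM with CPB (median 32.1) and 12.3 to 36.2 CPM in controls (median 19.9), a change of 0.68 ± 0.20 (adjusted p = 0.0221). It overlapped more, with 2 of 7 CPB kidneys above all controls, and its call was lost without CPB pig 2 or CPB pig 25 (adjusted p up to 0.0589).

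The other 5 kidney genes that rose were CSRNP1, KLF10, ZFP36, IER3 and CCN1. CSRNP1, a nuclear factor induced by AXIN1, stood at 12.4 to 22.2 CPM with CPB (median 17.9) and 8 to 16.7 CPM in controls (median 10.3), a change of 0.75 ± 0.16 (adjusted p = 0.00317). KLF10, a repressor induced by TGF-beta, stood at 31.4 to 55.7 CPM with CPB (median 38.7) and 18.4 to 33.8 CPM in controls (median 27.7), a change of 0.53 ± 0.14 (adjusted p = 0.0146). ZFP36 (tristetraprolin) stood at 58.1 to 136 CPM with CPB (median 93.5) and 37.9 to 76.5 CPM in controls (median 57.2), a change of 0.75 ± 0.21 (adjusted p = 0.0151). In these 3 genes 5, 6 and 5 of the 7 CPB kidneys lay above all controls. IER3, a regulator of cell survival, stood at 153 to 234 CPM with CPB (median 187) and 96.1 to 175 CPM in controls (median 128), a change of 0.55 ± 0.15 (adjusted p = 0.0146, and 0.0538 without the 2 controls with fat cell markers). CCN1 (CYR61, a matrix protein and target of SRF and YAP) stood at 35.7 to 343 CPM with CPB (median 87.8) and 32 to 105 CPM in controls (median 59), a change of 1.24 ± 0.38 (adjusted p = 0.0266). CCN1 was the most scattered of these genes: 3 of 7 CPB kidneys lay above all controls, and its call was lost without CPB pig 2, 19 or 21, without the 2 fat-marker controls, without the filter on low counts, and with limma-voom (adjusted p up to 0.0981).

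**Figure D2:**
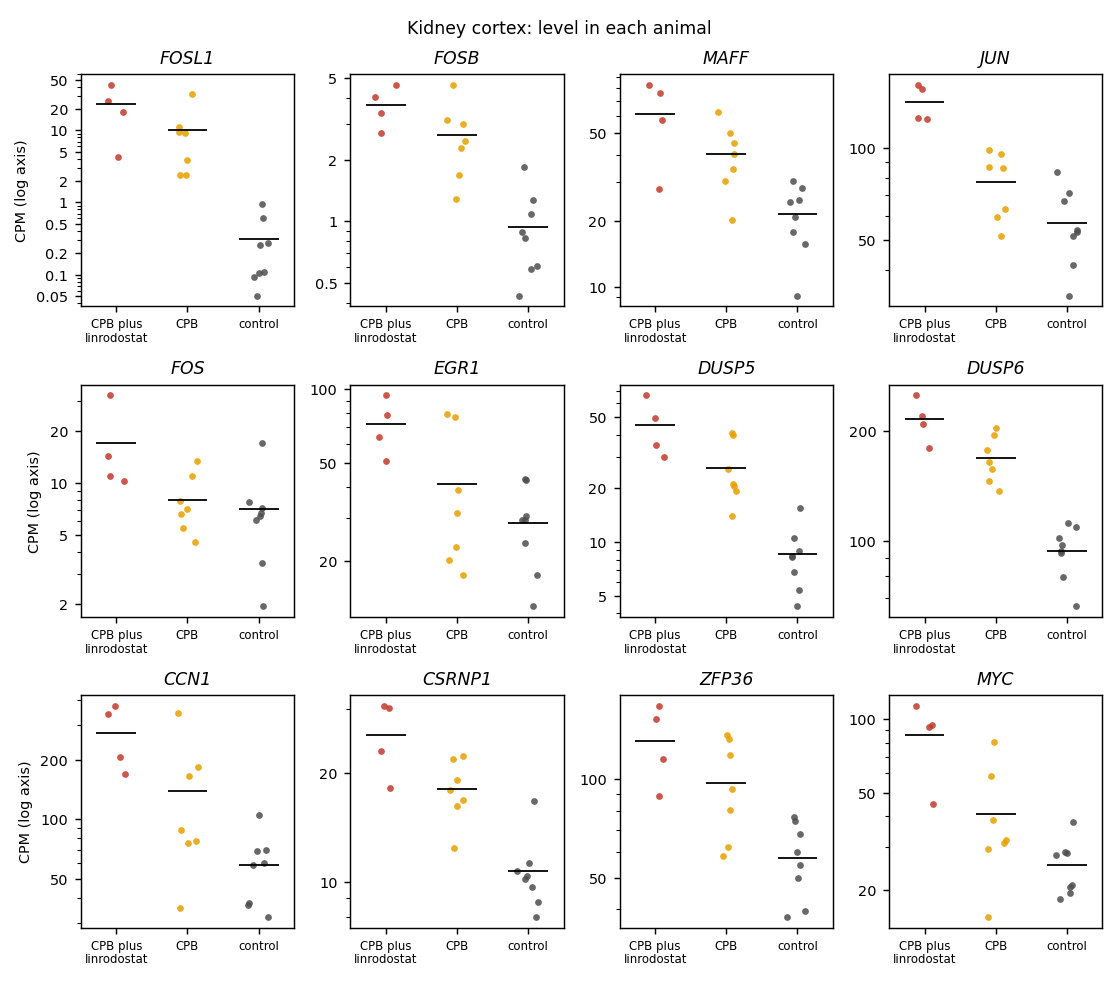
CPM in kidney (log axes) of 12 immediate early genes, 1 point per animal and a line at the mean, for CPB plus linrodostat (4), CPB (7) and control (8) pigs. FOSL1 and DUSP6 separate both bypass arms from controls, FOS and EGR1 overlap between CPB and control, and JUN is higher in all 4 linrodostat kidneys (124 to 161 CPM) than in any CPB kidney (51.7 to 98.8 CPM).

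Markers of other cells moved in the same kidneys. Of 5 smooth muscle markers, 4 were lower with CPB than in controls, their sum being 593 to 1309 CPM with CPB plus linrodostat, 213 to 673 CPM with CPB and 571 to 1487 CPM in controls. Of 5 macrophage markers 3 were lower, with sums of 87.2 to 226, 137 to 266 and 139 to 1275 CPM in the same order, and of 4 fibroblast markers 2 were lower, with sums of 788 to 2201, 451 to 1676 and 934 to 3340 CPM. Of 3 markers of proximal tubule injury tested, 2 were higher, with sums of 408 to 807 CPM with CPB plus linrodostat, 408 to 894 CPM with CPB and 129 to 239 CPM in controls. The part of these shifts in the results above was not tested. No marker of these lists was at 0 in all kidneys. Leaving out the 3 kidneys with heart markers gave 14 members called, and leaving out the 2 controls with fat cell markers gave 9, against 11 in all kidneys. The share of all genes called in those fits is not given here.

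Set against controls, linrodostat kidneys had 20 of 38 members called higher and 0 lower, where 11.7% of all genes were higher and 8.27% lower. The 20 included all 11 that rose with CPB alone, and both comparisons share the same 8 controls. The added 9 were JUN (1.31 ± 0.20, adjusted p = 0.000263), MYC (1.77 ± 0.31), KLF6 (1.10 ± 0.22), FOSL2 (1.17 ± 0.24), ATF3 (1.52 ± 0.36), EGR1 (1.33 ± 0.38, adjusted p = 0.0183), CCN2 (1.31 ± 0.38), SRF (0.50 ± 0.15) and FOS (1.26 ± 0.41, adjusted p = 0.038). DUSP6 stood at 250, 209, 220 and 180 CPM in the 4 linrodostat kidneys, a log2 fold change against control of 1.19 ± 0.13, and DUSP5 at 49.4, 66.4, 34.9 and 29.8 CPM, a change of 2.40 ± 0.30. CCN1 stood at 339, 373, 205 and 169 CPM, a change of 2.21 ± 0.43, and FOSL1 changed by 6.20 ± 0.78. CCN2, the relative of CCN1, stood at 217, 244, 195 and 199 CPM with linrodostat, 37.6 to 330 CPM with CPB (median 116) and 53.3 to 153 CPM in controls (median 71.4), so that the linrodostat kidneys lay above all controls and within the CPB range. In 14 of the 20 genes, every linrodostat kidney lay above every control kidney. The median over the 38 members was 0.81, against -0.04 over all genes tested.

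Between the bypass arms, which differ by the drug, 0 of 38 members were called in kidney (CPB plus linrodostat against CPB), and edgeR called 0% of the 17653 genes. At an unadjusted p under 0.05, 17 members passed, all of them higher with the drug, where 4.66% of all genes passed. DESeq2 called 0 members (18 at an unadjusted p under 0.05) and limma-voom 0 (19). The fold change was above 0 in 36 of 38 members, with a median of 0.49 against -0.00 over all genes.

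JUN, the main partner of FOS proteins in AP-1, had the smallest p in that comparison, at 156, 124, 125 and 161 CPM with linrodostat and 51.7 to 98.8 CPM with CPB (median 86), against 33 to 83.4 CPM in controls (median 53.8). The difference between the 2 bypass arms was 0.87 ± 0.21 (unadjusted p = 0.000541, adjusted p = 0.955). FOSL2, another FOS family subunit, stood at 67, 61.5, 65.4 and 47.2 CPM with linrodostat and 19.3 to 43.1 CPM with CPB (median 31.2), against 15.8 to 46.7 CPM in controls (median 24.6), a difference between bypass arms of 0.93 ± 0.25 (adjusted p = 0.998). For JUN and FOSL2 all 4 linrodostat kidneys lay above all 7 CPB kidneys. MYC, a driver of growth and ribosome production, stood at 92.8, 113, 94.7 and 45 CPM with linrodostat and 15.5 to 80.2 CPM with CPB (median 32), a difference of 1.08 ± 0.32 (adjusted p = 0.998). For MYC 3 of the 4 linrodostat kidneys lay above all CPB kidneys and pig 24 lay among them. FOS stood at 14.4, 32.2, 11 and 10.3 CPM with linrodostat (1.08 ± 0.43 against CPB) and EGR1 at 94.6, 78.3, 64.1 and 51.1 CPM, with adjusted p = 0.998 for FOS. The part of the heart markers in the kidney of linrodostat pig 12 was not tested for these levels.

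In liver the members that changed with CPB fell into 2 sets. EGR1, EGR2, DUSP5 and FOS fell, and DUSP6 and FOSL1 rose. EGR2, a zinc finger factor that also marks activated lymphocytes and macrophages, stood at 0.686, 1.18, 0.852 and 0.753 CPM with CPB plus linrodostat, 0.38 to 3.52 CPM with CPB (median 1.28) and 2.39 to 7.19 CPM in controls (median 5.84). With CPB it was lower by a log2 fold change of -1.77 ± 0.42 (adjusted p = 0.00478), and 5 of 7 CPB livers lay below all controls. EGR1 (chr2:140440829-140445302) stood at 14.7, 73.3, 26.5 and 64.1 CPM with CPB plus linrodostat, 49.8 to 268 CPM with CPB (median 88.8) and 157 to 393 CPM in controls (median 254). Its change with CPB was -1.20 ± 0.37 (adjusted p = 0.0236), 5 of 7 CPB livers lay below all controls, and the call was lost without CPB pig 2 and without the filter on low counts (adjusted p up to 0.0526).

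FOS (chr7:98449508-98451971) stood at 4.45, 11.4, 5.49 and 14.1 CPM in linrodostat livers, 3.85 to 20.8 CPM with CPB (median 10) and 14 to 30.7 CPM in controls (median 17.9), a change with CPB of -0.85 ± 0.31 (adjusted p = 0.045). DUSP5 stood at 1.96, 8.15, 3.25 and 4.27 CPM in linrodostat livers, 2.2 to 8.48 CPM with CPB (median 4.8) and 2.81 to 21.5 CPM in controls (median 8.92), a change with CPB of -1.15 ± 0.41 (adjusted p = 0.041). Both calls were close to the threshold: that of FOS was lost in 11 and that of DUSP5 in 8 of the 15 fits that left out 1 animal, both were lost without the filter on low counts, and that of DUSP5 with limma-voom (adjusted p up to 0.0919 for FOS and 0.0934 for DUSP5). DESeq2 and limma-voom both called 4 liver members that edgeR did not: EGR3 (-1.43 ± 0.53, edgeR adjusted p = 0.0512) and ATF3 (-1.21 ± 0.50, 0.0761), which were lower with CPB, and CCN1 (0.85 ± 0.32, 0.0534) and MYC (0.77 ± 0.30, 0.0625), which were higher. EGR3 rested on low counts, 2 to 17 per CPB liver and 10 to 44 per control liver. In addition DESeq2 alone called CCN2 and KLF10, and limma-voom alone called BTG2. DESeq2 thus called 12 of 38 members, and 4800 of 15406 genes. By limma-voom 9 of 38 members and 4096 genes were called.

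DUSP6 stood at 55.7, 45.6, 35.7 and 42.8 CPM in linrodostat livers, 24.8 to 97.6 CPM with CPB (median 57.8) and 19.5 to 46 CPM in controls (median 33.4). Its log2 fold change with CPB was 0.89 ± 0.23 (adjusted p = 0.00793), with 6 of 7 CPB livers above all controls. FOSL1 was near the limit of detection: it stood at 0, 0.775, 0.896 and 0.474 CPM in linrodostat livers, 0.103 to 0.608 CPM with CPB (median 0.271) and 0 to 0.125 CPM in controls (median 0.0932). The fitted change with CPB was 2.10 ± 0.65 (adjusted p = 0.0222), which rested on 4 to 24 counts per CPB liver and 0 to 6 per control liver; limma-voom did not call it (adjusted p = 0.0759). Of the 7 CPB livers 6 lay above all controls for FOSL1.

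**Figure D3:**
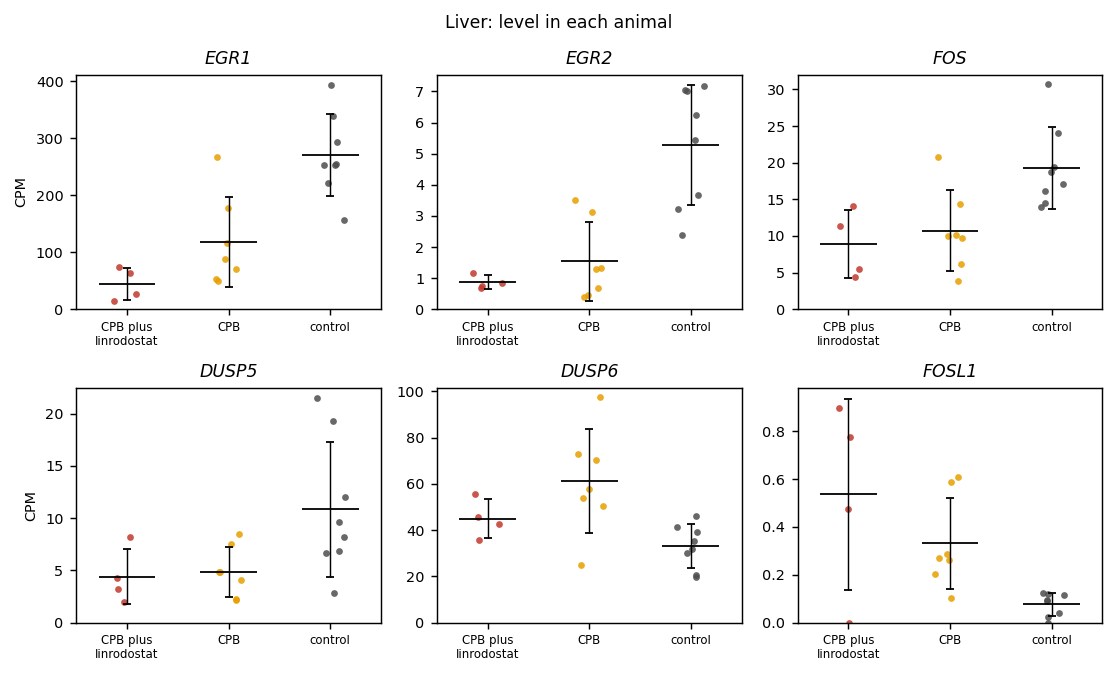
CPM in liver (linear axes) of EGR1, EGR2, FOS, DUSP5, DUSP6 and FOSL1, with 1 point per animal and the mean ± SD, for CPB plus linrodostat (4), CPB (7) and control (8) pigs. All 4 linrodostat livers lie below all controls for EGR1 and EGR2, while DUSP6 lies above the control median of 33.4 CPM in all 4 of them.

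Set against controls, linrodostat livers had 4 members higher and 4 lower, where 12.9% and 8.88% of all genes were called. EGR1 (-2.60 ± 0.50, adjusted p = 0.00212) and EGR2 (-2.60 ± 0.54, adjusted p = 0.00332) had the largest falls and did not overlap between the arms. FOS (-1.13 ± 0.38) and IER2, a nuclear protein of the early response (-0.77 ± 0.22), also fell, and FOSL1 (2.79 ± 0.71), CCN1 (1.13 ± 0.36), MYC (1.03 ± 0.35) and ZFP36L1, an mRNA decay factor (0.69 ± 0.16), rose. Between linrodostat and CPB livers 0 of 38 members were called, against 0.772% of all genes (119 genes), and 2 members passed an unadjusted p under 0.05, against 8.42% of genes. DESeq2 and limma-voom called 0 members as well. The members with the smallest p were ZFP36L1, EGR1 and IER2. ZFP36L1 stood at 486, 329, 427 and 438 CPM with linrodostat and 228 to 341 CPM with CPB (median 305), a difference of 0.50 ± 0.16 (adjusted p = 0.292), and EGR1 differed by -1.40 ± 0.47 (adjusted p = 0.319). IER2 stood at 18.4, 38.5, 27.7 and 42.3 CPM with linrodostat and 33 to 61.8 CPM with CPB (median 40.4), a difference of -0.42 ± 0.22 (adjusted p = 0.642). The arms overlapped for all 3 genes.

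Immune markers also differed between these livers. Of 5 macrophage markers 3 were lower with CPB than in controls, with sums of 311 to 547 CPM with CPB plus linrodostat, 324 to 655 CPM with CPB and 469 to 1013 CPM in controls. Of 4 T cell markers 2 were lower (sums of 9.39 to 36.3, 6.76 to 31.6 and 21.4 to 79.8 CPM in the same order), and of 4 B cell markers all 4 were lower (6.91 to 18.8, 1.38 to 5.28 and 5.03 to 12.1 CPM). Of 3 neutrophil markers tested 2 were higher, with sums of 7.97 to 21.3, 5.03 to 15.8 and 2.83 to 10.7 CPM. Their part in the lower EGR and FOS levels was not tested.

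In heart the genes that rose with CPB were CCN2, SRF, the nuclear receptors NR4A3 and NR4A1, CSRNP1 and BTG2, while edgeR called no AP-1 or EGR gene (DESeq2 called FOSB, at an edgeR log2 fold change of 1.85 ± 0.72 and adjusted p = 0.0945). CCN2 (CTGF, a secreted matrix regulator) had the largest change. It stood at 38.9, 32.2, 63.6 and 52.9 CPM in linrodostat hearts, 30.6 to 203 CPM with CPB (median 57.5) and 11.1 to 29.8 CPM in controls (median 19.2). The change with CPB was 2.05 ± 0.34 (adjusted p = 0.000824), a fold of 4.15. Neither bypass arm overlapped with controls for CCN2. SRF (chr7:38213300-38223686), the factor that binds the serum response element, stood at 108, 81.6, 187 and 151 CPM in linrodostat hearts, 97.4 to 198 CPM with CPB (median 158) and 53.6 to 123 CPM in controls (median 72.3), a change with CPB of 0.93 ± 0.21 (adjusted p = 0.0072). Of the 7 CPB hearts 4 lay above all controls for SRF.

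Of the 3 orphan nuclear receptors 2 rose in heart. NR4A3 (NOR1) stood at 14.7, 5.17, 20.7 and 21.4 CPM in linrodostat hearts, 10.7 to 29.8 CPM with CPB (median 13.8) and 3.9 to 11.2 CPM in controls (median 7.4), a change with CPB of 1.20 ± 0.30 (adjusted p = 0.0131). NR4A1 (NUR77) stood at 27 to 79 CPM with CPB (median 40.4) and 18.2 to 37 CPM in controls (median 26.8), a change of 0.71 ± 0.23 (adjusted p = 0.0444). For NR4A3 4 and for NR4A1 5 of the 7 CPB hearts lay above all controls. CSRNP1 stood at 5.71 to 17.2 CPM with CPB (median 7.85) and 3.23 to 9.51 CPM in controls (median 4.73), a change of 0.81 ± 0.25 (adjusted p = 0.0356). BTG2, an antiproliferative factor that recruits the mRNA deadenylase, stood at 4.34 to 15.3 CPM with CPB (median 8.39) and 3.74 to 6.96 CPM in controls (median 6.19), a change of 0.63 ± 0.20 (adjusted p = 0.0494). The calls of CSRNP1, NR4A1 and BTG2 were lost in 8, 10 and 13 of the 15 fits that left out 1 animal, with adjusted p up to 0.114, 0.122 and 0.134. That of NR4A1 was also lost with limma-voom and without the filter on low counts, and that of BTG2 under both of these, with sex as a covariate and with only both arms in the fit.

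GADD45A and SPRY4 fell in heart. GADD45A, a stress-induced regulator of growth arrest and DNA repair, stood at 39.2, 32.6, 38 and 50.2 CPM in linrodostat hearts, 14.1 to 46.5 CPM with CPB (median 22.5) and 34.9 to 56.7 CPM in controls (median 45.9), a change with CPB of -0.85 ± 0.23 (adjusted p = 0.0199). SPRY4, a Sprouty inhibitor of receptor tyrosine kinase signalling, stood at 15.2, 10.6, 13.6 and 13.9 CPM in linrodostat hearts, 9.6 to 19.1 CPM with CPB (median 11.1) and 10.8 to 29.2 CPM in controls (median 18.4), a change with CPB of -0.68 ± 0.19 (adjusted p = 0.0254). Below all controls lay 5 of 7 CPB hearts for GADD45A and 3 of 7 for SPRY4, and the call of SPRY4 was lost without CPB pig 11 or 25 or control pig 13 or 15 (adjusted p up to 0.0592). FOS stood at 1.55 to 7.23 CPM with CPB (median 3.61) and 0.767 to 5.06 CPM in controls (median 2.65), a difference of 0.46 ± 0.38 (adjusted p = 0.451). EGR1 stood at 9.6 to 67 CPM with CPB (median 12.3) and 13.9 to 25.5 CPM in controls (median 17.6), a difference of 0.24 ± 0.36 (adjusted p = 0.696). Both overlapped between the arms. For EGR1 4 of 7 CPB hearts lay below all controls and 2 lay above all controls, with CPB pig 19 at 67 CPM.

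**Figure D4:**
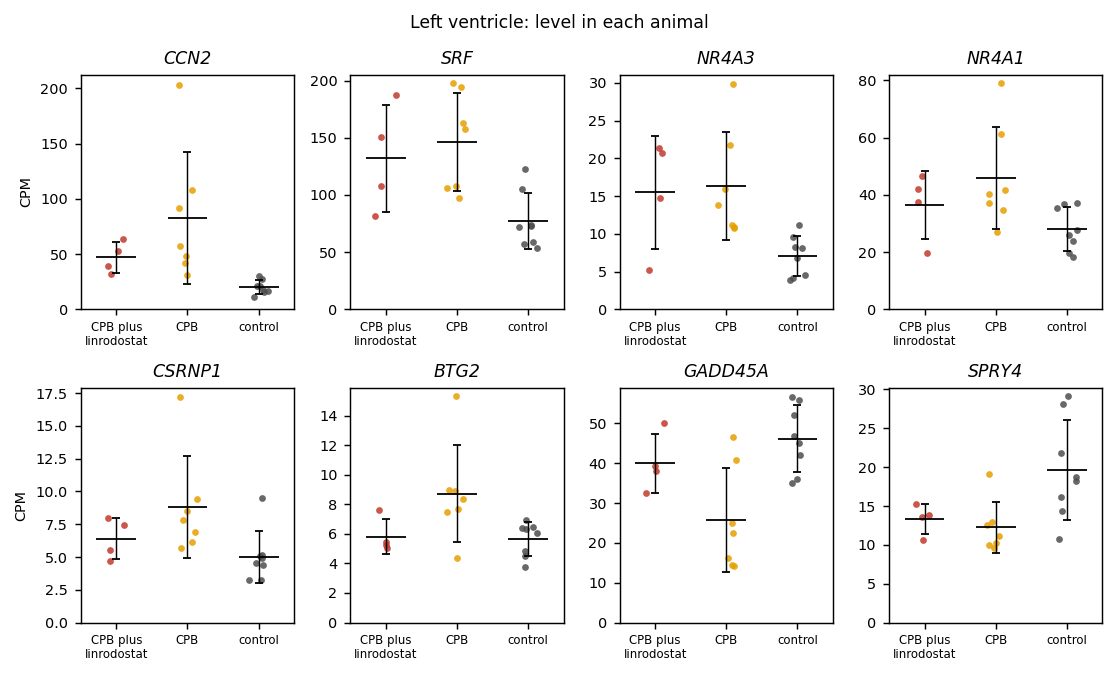
CPM in heart (linear axes) of the 8 immediate early genes called for CPB against control, with 1 point per animal and the mean ± SD, for CPB plus linrodostat (4), CPB (7) and control (8) pigs. CCN2 in both bypass arms lies above the highest control of 29.8 CPM, and GADD45A in linrodostat hearts (32.6 to 50.2 CPM) lies mostly within the control range.

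Linrodostat hearts against control hearts had 0 of 38 members called by edgeR, which called 2.04% of all genes, and 0 by limma-voom. DESeq2 called CCN2, NR4A3 and SRF, and 693 of 14890 genes. At an unadjusted p under 0.05 by edgeR, 6 members passed, where 15.8% of all genes did. Against CPB, linrodostat hearts had 0 members called by edgeR, DESeq2 and limma-voom, with 0% of all genes called by edgeR; 4 members passed an unadjusted p under 0.05, where 6.05% of genes did. The smallest p belonged to FOSB, GADD45A and BTG2. FOSB stood at 0.594, 0.438, 0.124 and 0.932 CPM with linrodostat and 0.493 to 8.51 CPM with CPB (median 0.776), a difference of -2.27 ± 0.96 (adjusted p = 0.806). Its counts were low, at 3 to 16 per linrodostat heart, 10 to 199 per CPB heart and 1 to 77 per control heart. GADD45A differed by 0.64 ± 0.27 and BTG2 by -0.58 ± 0.25, also with adjusted p = 0.806. Of 5 smooth muscle markers in heart 2 were higher with CPB than in controls, their sum being 400 to 472 CPM with CPB plus linrodostat, 231 to 493 CPM with CPB and 190 to 359 CPM in controls. Their part in the CCN2 and SRF levels was not tested.

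In lung only GADD45A and SPRY4 were called for CPB against control. GADD45A rose, at 44.8, 37.3, 29.1 and 34.6 CPM in linrodostat lungs, 27.6 to 54.7 CPM with CPB (median 38.7) and 22.3 to 30.7 CPM in controls (median 24.7), a change with CPB of 0.63 ± 0.12 (adjusted p = 0.00762). Of the 7 CPB lungs 6 lay above all controls. SPRY4 fell, at 54.4, 48, 31.6 and 51.4 CPM in linrodostat lungs, 27.6 to 51.3 CPM with CPB (median 42.5) and 53.7 to 70.1 CPM in controls (median 57.7), a change with CPB of -0.57 ± 0.13 (adjusted p = 0.0218). All 7 CPB lungs lay below all controls for SPRY4, yet the call was lost without CPB pig 25, and without both lungs in which 10 genes held over 20% of counts (adjusted p up to 0.0797).

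EGR3, a member of the EGR family, had the next smallest p in lung. It stood at 0.799, 1.61, 1.38 and 0.549 CPM in linrodostat lungs, 0.365 to 1.87 CPM with CPB (median 0.804) and 0.688 to 4.23 CPM in controls (median 2.12), a difference with CPB of -1.39 ± 0.42 (adjusted p = 0.0595). DESeq2 called it. FOS stood at 13.2, 83.7, 17.6 and 51.5 CPM in linrodostat lungs, 7.33 to 59.3 CPM with CPB (median 14.1) and 5.94 to 20.3 CPM in controls (median 10.5). The difference of CPB from control was 0.80 ± 0.44 (adjusted p = 0.302), and that of CPB plus linrodostat from control was 1.86 ± 0.50 (adjusted p = 0.0532). Linrodostat lungs 18 and 24 were the high ones. EGR1 stood at 38.4, 79.2, 38.1 and 104 CPM in linrodostat lungs, 21.9 to 96.9 CPM with CPB (median 39.7) and 23.6 to 62.7 CPM in controls (median 32.5), a difference with CPB of 0.15 ± 0.31 (adjusted p = 0.83), and it was high in the same 2 linrodostat lungs.

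Linrodostat lungs against control lungs had 1 member called, GADD45A, which was higher by 0.53 ± 0.14 (adjusted p = 0.0497), where 1.06% of all genes were higher. That call was lost with other size factors, with limma-voom, with sex as a covariate, without the filter on low counts and without the 4 lungs with kidney markers. Between linrodostat and CPB lungs 0 of 38 members were called by edgeR, DESeq2 or limma-voom, with 0% of all genes called by edgeR, and 0 members passed an unadjusted p under 0.05, against 2.59% of genes. FOS (1.07 ± 0.52), ZFP36 and IER2 had the smallest p. ZFP36 stood at 201, 236, 151 and 221 CPM with linrodostat and 86.2 to 274 CPM with CPB (median 137), a difference of 0.39 ± 0.25. IER2 stood at 113, 109, 120 and 139 CPM with linrodostat and 69.6 to 119 CPM with CPB (median 104), a difference of 0.24 ± 0.16. All 3 had adjusted p = 1, and the arms overlapped. In the same lungs 4 of 5 macrophage markers were lower with CPB than in controls, with sums of 2090 to 3849 CPM with CPB plus linrodostat, 1984 to 4315 CPM with CPB and 3823 to 7110 CPM in controls. Of 3 neutrophil markers tested 1 was higher, with sums of 183 to 365, 175 to 382 and 117 to 250 CPM in the same order. Without the 4 lungs with kidney markers, 2 members were still called for CPB against control. The part of either marker list in the GADD45A and SPRY4 levels was not tested.

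In ileum no member was called for CPB against control by edgeR or limma-voom; 8 passed an unadjusted p under 0.05, all of them lower, where 5.22% of all genes passed. DESeq2 called 1 member, JUNB, and 16 of 17869 genes. JUNB, an AP-1 subunit that restrains JUN, stood at 90.8, 118, 127 and 99.5 CPM in linrodostat ilea, 101 to 162 CPM with CPB (median 145) and 159 to 295 CPM in controls (median 207). The difference with CPB was -0.68 ± 0.16 (adjusted p = 0.575), and 6 of 7 CPB ilea lay below all controls. All 8 AP-1 genes had a fold change under 0 in ileum, with a median of -0.69.

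ATF3, a stress-induced bZIP repressor, stood at 15.3, 14.8, 19.4 and 25.8 CPM in linrodostat ilea, 11.6 to 26.1 CPM with CPB (median 19.8) and 20.3 to 71.8 CPM in controls (median 30.9), a difference with CPB of -0.89 ± 0.24 (adjusted p = 0.575). IER3 stood at 11.5, 11.3, 9.85 and 7.27 CPM in linrodostat ilea, 6.52 to 12.1 CPM with CPB (median 10.6) and 9.31 to 31.7 CPM in controls (median 18.1), a difference with CPB of -0.93 ± 0.27 (adjusted p = 0.695). Both overlapped between CPB and control. FOS stood at 22.2, 36.5, 11.9 and 6.92 CPM in linrodostat ilea, 9.23 to 69.9 CPM with CPB (median 17.7) and 13 to 178 CPM in controls (median 36.4), a difference with CPB of -1.16 ± 0.58 (adjusted p = 0.97). Control ileum 7 was the highest library for FOS and also for FOSB (55.9 CPM, against 1.38 to 3.06 CPM in the other controls) and NR4A1 (79.9 CPM).

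EGR1 stood at 47.8, 36.2, 49 and 37 CPM in linrodostat ilea, 52.7 to 72.2 CPM with CPB (median 63.2) and 62.6 to 177 CPM in controls (median 72.5). All 4 linrodostat ilea lay below all CPB and all control ilea, at a difference from CPB of -0.57 ± 0.25 (unadjusted p = 0.0348, adjusted p = 0.502). The difference of CPB from control was -0.48 ± 0.20 (adjusted p = 0.917). Between linrodostat and CPB ilea 0 of 38 members were called by edgeR, DESeq2 or limma-voom, with 0% of all genes called by edgeR; EGR1 alone passed an unadjusted p under 0.05, where 9.18% of genes did. NR4A2, a nuclear receptor, stood at 3.47, 4.03, 3.9 and 0.998 CPM with linrodostat and 4 to 6.61 CPM with CPB (median 4.27), a difference of -0.58 ± 0.30 (adjusted p = 0.57). GADD45A stood at 122, 76.6, 63.5 and 192 CPM with linrodostat and 46.9 to 113 CPM with CPB (median 77.1), a difference of 0.51 ± 0.29 (adjusted p = 0.604), and the arms overlapped. Linrodostat ilea against control ilea had 1 member called, JUNB, with a log2 fold change of -1.02 ± 0.20 (adjusted p = 0.048), where 0.0616% of all genes were lower. That call was lost without the filter on low counts, with sex as a covariate and with only both arms in the fit. Summed smooth muscle markers were 269 to 21965 CPM with CPB plus linrodostat, 1109 to 12188 CPM with CPB and 455 to 17254 CPM in controls, with 0 of 5 called, and their part in the spread between ilea was not tested.

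An F test over all 95 libraries asked whether the CPB effect itself was unequal among the organs. It called 12 of 38 members, where 12.9% of 20321 genes were called. DUSP6 had the smallest adjusted p (0.00115), with changes of 0.84 ± 0.12 in kidney and 0.89 ± 0.23 in liver and differences of -0.31 ± 0.20 in heart, -0.17 ± 0.22 in ileum and 0.05 ± 0.14 in lung. DUSP5 (adjusted p = 0.00163) rose in kidney and fell in liver, with -0.59 ± 0.25 in lung. FOSL1 (adjusted p = 0.00235) had 5.02 ± 0.72 in kidney and 2.10 ± 0.65 in liver, against 1.67 ± 0.91 in heart, -0.22 ± 0.71 in ileum and 0.01 ± 0.70 in lung. FOSB (adjusted p = 0.00176) had 1.48 ± 0.31 in kidney and 1.85 ± 0.72 in heart, against -2.25 ± 0.77 in ileum, where control pig 7 held the high value given above.

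SRF (adjusted p = 0.00229) rose in heart, by 0.93 ± 0.21, while its differences elsewhere lay between -0.14 ± 0.13 in ileum and 0.29 ± 0.17 in liver. GADD45A (adjusted p = 0.0366) fell in heart by 0.85 ± 0.23 and rose in lung by 0.63 ± 0.12. EGR1 (adjusted p = 0.0437) had -1.20 ± 0.37 in liver and 0.52 ± 0.33 in kidney. The other members called were NR4A1 (adjusted p = 0.00885), CCN1 (0.0117), ZFP36 (0.0403), MAFF (0.0419) and GADD45B (0.0463), a stress-induced relative of GADD45A that had 0.72 ± 0.35 in liver and -0.68 ± 0.23 in heart and was not called by edgeR in either alone, while DESeq2 and limma-voom called it in heart. Since every animal gave all 5 organs, the fit with the animal as a block was also made, and it called 18 members and 15.6% of genes. Without heart, whose libraries bear the other batch label, 9 members and 10% of genes were called. SRF, GADD45A and GADD45B lost their calls there (F test, adjusted p = 0.493, 0.334 and 0.298). By limma-voom 4 members (DUSP6, SRF, FOSL1 and GADD45A) and 6.79% of genes were called. Without the filter on low counts 8 members and 6.54% of genes were called, and ZFP36, MAFF, EGR1 and GADD45B lost their calls. Leaving out the kidneys with heart markers, the lungs with kidney markers and the ileum with low FABP6 gave 10 members and 10.7% of genes. GADD45A, ZFP36, MAFF and EGR1 were not called in that fit. The control kidneys with fat cell markers stayed in that fit.

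FOS and EGR1 are induced by the same promoter elements, and their levels were compared from animal to animal within each arm and organ (10 relations, log2 CPM, exact permutation test, 2-sided, Benjamini-Hochberg over the 10). In lung the Pearson correlation was 0.95 over 7 CPB pigs (exact permutation p = 0.00139, adjusted 0.00645; Spearman 0.89, adjusted 0.0308) and 0.85 over 8 controls (exact permutation p = 0.00193, adjusted 0.00645; Spearman 0.90, adjusted 0.0152). In heart it was 0.91 over CPB pigs (exact permutation p = 0.000397, adjusted 0.00397; Spearman 1.00, adjusted 0.00397) and 0.86 over controls (exact permutation p = 0.00585, adjusted 0.0146; Spearman 0.90, adjusted 0.0152). Without the 2 pigs farthest from the median FOS level these became 0.78 and 0.70 in lung and 0.90 and 0.56 in heart. The drop was largest in control hearts, where control pigs 13 and 15 were left out. This check leaves 5 or 6 pigs over a narrower range of FOS, so it cannot tell whether a relation rested on the pigs left out.

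In kidney the Pearson correlation was 0.89 over CPB pigs (exact permutation p = 0.0129, adjusted 0.0258, and Spearman 0.75, adjusted 0.11). Over controls it was 0.75 (exact permutation p = 0.0295, adjusted 0.0492, and Spearman 0.76, adjusted 0.0735). By Spearman neither passed. Without the 2 farthest pigs the Pearson correlation was 0.50 and 0.14, with the limit given above. In liver it was 0.73 over CPB pigs (exact permutation p = 0.0643, adjusted 0.0804; Spearman 0.68, adjusted 0.156) and 0.57 over controls (exact permutation p = 0.142, adjusted 0.157; Spearman 0.43, adjusted 0.332). In ileum it was -0.15 over CPB pigs (exact permutation p = 0.748, adjusted 0.748; Spearman -0.21, adjusted 0.662) and 0.74 over controls (exact permutation p = 0.0356, adjusted 0.0508; Spearman 0.48, adjusted 0.304). None of these 4 passed the adjusted threshold.

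**Figure D5:**
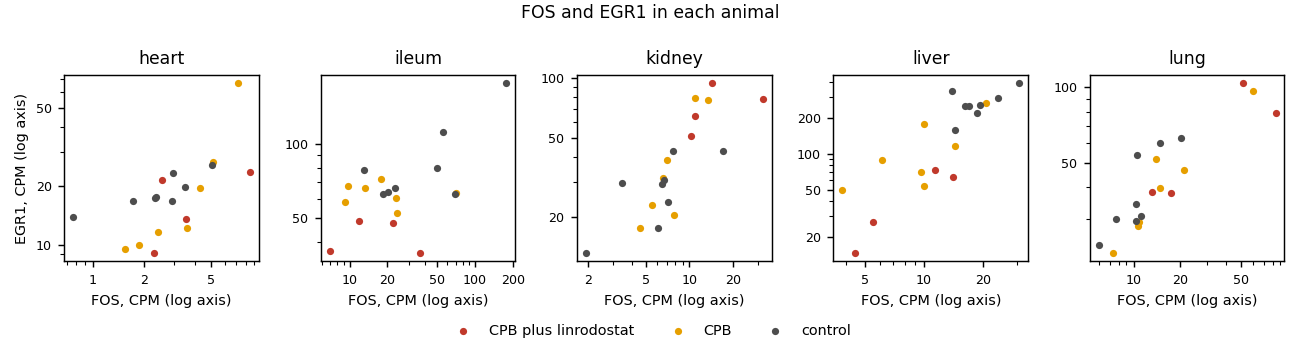
EGR1 against FOS in CPM (log axes), 1 point per animal, in 5 organs, for CPB plus linrodostat, CPB and control pigs. Points run along a rising line in heart and lung (Pearson 0.91 and 0.95 with CPB, 0.86 and 0.85 in controls) and show no such line over CPB ilea (-0.15). Control livers lie at 157 to 393 CPM of EGR1. CPM are scaled within each organ, so levels cannot be compared between the panels.

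Control animals, which had anesthesia without bypass, gave a level for each organ on a common scale over the 95 libraries. These CPM differ from those above, which were scaled within 1 organ: control livers span 291 to 750 CPM of EGR1 here. Kidney and ileum were taken before euthanasia, and liver, heart and lung after pentobarbital. Organ and time of sampling therefore cannot be told apart between these 2 sets. Of the 38 members, 12 were highest in ileum, 10 in liver, 8 in lung, 6 in heart and 2 in kidney. EGR1 averaged 493 ± 140 CPM in liver (SD, n = 8 pigs), 64.8 ± 31.1 in ileum, 28 ± 10.7 in lung, 27.4 ± 5.72 in heart and 22.4 ± 8.4 in kidney. Liver stood apart from ileum and ileum from lung, with no overlap of pigs, and lung, heart and kidney overlapped. FOS averaged 39.8 ± 41.8 CPM in ileum and 35.2 ± 11 in liver, which overlapped, then 7.9 ± 3.06 in lung, 5.56 ± 3.59 in kidney and 3.93 ± 1.85 in heart, where liver stood apart from lung and the last 3 overlapped.

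SRF averaged 112 ± 36.8 CPM in heart and 44.8 ± 3.42 in ileum, with no overlap, and was lowest in liver at 20 CPM. DUSP5 averaged 70.7 ± 41.2 CPM in ileum and 2.82 ± 1.87 in heart, a fold of 25.1 between the highest and lowest organ. MAFF varied least between organs, with a fold of 1.96. These organ differences are a description without a test. The heart values carry the other batch label, and sampling before or after pentobarbital differs between organs as given above.

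Upstream of the members, 16 genes for input kinases and coactivators were tested. With CPB, 3 were higher and 1 lower in heart (6.39% and 5.53% of all genes), 4 higher and 0 lower in kidney (11.3% and 9.86%), 3 higher and 3 lower in liver (15.6% and 11.3%), 1 higher and 1 lower in lung (2.08% and 2.62%), and 0 called in ileum (0%). These backgrounds also hold for the other lists that follow. MAP2K1, the kinase that activates ERK, rose in kidney by 0.80 ± 0.13 (84.2 ± 18.4 CPM with CPB plus linrodostat, 73 ± 16.1 with CPB and 42.1 ± 4.81 in controls, SD) and in heart by 0.47 ± 0.13. ELK1, the ERK target that partners SRF, rose in heart by 0.77 ± 0.18 and in kidney by 0.59 ± 0.12, and RPS6KA3, a kinase downstream of ERK, rose in heart by 0.83 ± 0.20 and in liver by 0.77 ± 0.23. MAPK8 (JNK) rose in kidney by 0.58 ± 0.12 and in lung by 0.37 ± 0.09. CREB1, which acts at the FOS promoter, fell in liver by 0.74 ± 0.19 and in lung by 0.50 ± 0.12, and MAPK3 (ERK) fell in liver by 0.63 ± 0.18.

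Of 11 bZIP partners tested (12 listed), 2 were higher in heart, 4 higher and 1 lower in kidney, 2 higher in liver, and 0 called in lung and ileum. MAFK, a small MAF like MAFF, rose in kidney by 0.84 ± 0.11 and in heart by 0.70 ± 0.22, and MAFG rose in heart by 0.59 ± 0.15 and in liver by 0.51 ± 0.18. CEBPD rose in kidney by 0.85 ± 0.30, at the edge of the threshold (adjusted p = 0.0494), and CEBPB rose in liver by 0.88 ± 0.21; both encode acute-phase factors. JDP2, a repressor of AP-1, fell in kidney by 0.73 ± 0.17.

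Of 30 other early and delayed early genes, CPB against control called 5 of 27 tested higher in heart, 11 of 28 higher and 1 lower in kidney, 2 of 27 higher and 1 lower in liver, 1 of 29 higher in lung, and 0 of 29 in ileum. Linrodostat kidneys against control kidneys had 17 of 28 higher and 0 lower. HBEGF, a ligand of the EGF receptor, averaged 39.9 ± 7.2 CPM with CPB plus linrodostat, 28.5 ± 12.8 with CPB and 12 ± 2.04 in control kidneys (SD), a change with CPB of 1.25 ± 0.21. LIF, a cytokine of the interleukin 6 family, rose in kidney by 1.78 ± 0.58. DUSP1, the nuclear phosphatase of p38 and JNK, rose with CPB in heart (1.39 ± 0.22), liver (1.30 ± 0.36) and lung (1.08 ± 0.21). TRIB1 (1.33 ± 0.18) and PPP1R15A, which restarts translation after stress (0.78 ± 0.16), rose in heart, and CITED2, a transcriptional coregulator, fell in liver by 0.73 ± 0.23.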

How the data were processed

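The submitters deposited 1 table of expected counts per Ensembl gene for 95 libraries; 92.7% to 96.6% of values per library were whole, and the deposited counts were rounded here. PolyA RNA was made into libraries with a Tecan Universal Plus kit and read in pairs, per the labels' protocols. The submitters' processing notes list STAR, Salmon, bcl2fastq, cutadapt, Trim Galore and MultiQC, with the build Sscrofa11.1. The program that made the counts, the annotation release and the strand setting are not given in the sources used here, so reads of overlapping or near-identical genes could be shared between entries.

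Each organ's 19 libraries were fitted with edgeR 4.0.16 (R 4.3.3; TMM, filterByExpr by arm, robust quasi-likelihood test), with Benjamini-Hochberg adjustment over all genes of the organ and a threshold of 0.05. The whole table was fitted and only this list's values are given. CPM are TMM-scaled counts per 1000000 counts of the tested genes, scaled within each organ unless a common scale is named. The marker levels that set libraries apart are the exception, without TMM and per 1000000 counts of all genes. The spread between animals (biological coefficient of variation) was 0.526 in ileum and 0.339 to 0.365 in the other organs. The difference between organs was an F test on all 95 libraries. Libraries from the same animal deviated together (median correlation 0.111 to 0.259 over 10 organ pairs and 14798 genes), and the labels give 1 animal number to its 5 organs. No libraries of a group agreed within counting noise. DESeq2 1.42.0, limma-voom (limma 3.58.1), other size factors, no filter, sex as a covariate, only both arms compared and each animal left out were the alternatives; leaving out libraries with markers of another organ, or with a few dominant genes, was chosen after seeing the data. The fits were checked on simulated counts.

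The members, roles and other lists were chosen with earlier results of these data known, so counts over them are descriptions. The genes named are those called for CPB against control or between the bypass arms, the 3 with the smallest p where fewer than 3 were called, those called between organs, FOS and EGR1, and up to 3 called genes with the largest change per other list and organ; 1 gene of these lists is not reported here. Control ileum 7 and the genes added in kidney and liver with linrodostat against control were named after their values were seen. Coordinates are those of the RefSeq annotation of Sscrofa11.1 by symbol, and CCN1 and CCN2 had no match there. Correlations used log2 CPM with a prior count of 2 (scipy 1.17.1). Intervals here cover the spread between animals.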

Additional observations from a re-analysis of the deposited data

Results flagged for a closer look

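In 3 of 81 groups of animals (log2 CPM of a gene in 1 arm and organ) 1 animal stood far from the rest of its group, where about 1 group in 20 does so by chance. CSRNP1 in heart stood at 9.51 CPM in control pig 15, a gap of 0.57 of the group's range. CSRNP1 in kidney stood at 16.7 CPM in the same pig, a gap of 0.535. SPRY4 in lung stood at 70.1 CPM in control pig 7, a gap of 0.641. The 81 groups do not cover every member, organ and arm. Control ileum 7, with 55.9 CPM of FOSB against 1.38 to 3.06 CPM in the other controls, is not among the 3.

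The CPB effect differed between organs, by the test of the difference itself, for DUSP6 (adjusted p = 0.00115), DUSP5 (0.00163), FOSB (0.00176), SRF (0.00229), FOSL1 (0.00235), NR4A1 (0.00885), CCN1 (0.0117), GADD45A (0.0366), ZFP36 (0.0403), MAFF (0.0419), EGR1 (0.0437) and GADD45B (0.0463). Ileum held the lowest log2 fold change of several of them: NR4A1 had -0.97 ± 0.39 in ileum and 0.71 ± 0.23 in heart, CCN1 had -1.04 ± 0.49 in ileum and 1.24 ± 0.38 in kidney, ZFP36 had -0.46 ± 0.19 in ileum and 0.75 ± 0.21 in kidney, and MAFF had -0.70 ± 0.46 in ileum and 0.91 ± 0.26 in kidney. None of these 4 was called within ileum alone. Control ileum 7 was the highest control for all 4, at 79.9, 51.2, 367 and 73.5 CPM in that order. The control medians were 14, 13.2, 225 and 36.2 CPM. The test between organs was not repeated without that pig. By limma-voom only DUSP6, SRF, FOSL1 and GADD45A kept the call between organs. Without heart, SRF, GADD45A and GADD45B lost it.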

How the results depend on the processing

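Where no share of all genes stands beside a count below, the count cannot show whether members or all genes changed. When 1 animal was left out, CPB against control called 9 to 14 members in kidney, 3 to 10 in liver, 4 to 9 in heart, 1 to 4 in lung and 0 to 0 in ileum. CPB plus linrodostat against control called 15 to 25, 5 to 10, 0 to 1, 0 to 2 and 0 to 1 in the same organs, and CPB plus linrodostat against CPB called 0 to 0 in each organ. For CPB against control, DESeq2 called 1 in ileum (and 16 of 17869 genes) and 12 in liver (and 4800 of 15406 genes). No filter gave 3 in liver, and 1 was called in lung without both lungs with a few dominant genes. For CPB plus linrodostat against control, DESeq2 called 3 in heart, 2 in ileum, 13 in liver and 2 in lung. Over all genes it called 693 of 14890, 833 of 17869, 3948 of 15406 and 1107 of 17849 in the same organs. Fitting only both arms gave 1 in heart, 0 in ileum and 2 in lung; no filter gave 0 in ileum, 5 in liver and 0 in lung; sex as a covariate gave 0 in ileum and 0 in lung. In lung, other size factors, limma-voom, leaving out the 4 lungs with kidney markers and leaving out both lungs with a few dominant genes each gave 0. Kidney gave 16 and 19 without the heart-marker and the fat-marker libraries. The test between organs called 18 members and 15.6% of genes with the animal as replicate block, which pairs the organs of a pig. By limma-voom it called 4 members and 6.79% of genes, against 12 and 12.9% in the main fit. Without the 2 farthest pigs the FOS with EGR1 correlation was 0.56 in control hearts, 0.51 in control ilea, 0.50 in CPB kidneys, 0.14 in control kidneys, 0.78 in CPB lungs and 0.70 in control lungs. Of 945 recomputed values of the 46 named member results, 862 kept their call, 78 lost it, 5 gained it and 0 changed direction. The causes were not tested. Low counts (0 to 40 per library) limit FOSL1 in liver, and 4 linrodostat animals limit every comparison with the drug. EGR3 in liver and FOSB in heart are also limited by low counts, as given above.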
